A study of Mus musculus with 4 samples.

Results

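Dividing endothelial cells of the coronary vessels were described in single-cell RNA sequencing data of fetal mouse ventricles, and their RNA was compared between embryos with an endothelial deletion of *Ets1* and control embryos. The cells were chosen by measured values. A barcode had 1000 to 7000 genes and at most 10% of its unique molecular identifiers (UMIs, each standing for 1 captured RNA molecule) from mitochondrial genes. It had less than 0.5% of UMIs from the cardiomyocyte genes *Tnnt2*, *Actc1*, *Tnnc1* and *Ttn*, and at least 4 UMIs from the endothelial genes *Pecam1*, *Cdh5*, *Emcn* and *Egfl7*. It also had at least 0.1% of UMIs from *Fabp4*, a fatty acid binding protein of capillary and coronary endothelium, and at least 2 UMIs from the proliferation genes *Top2a* and *Mki67* together. Of 45551 barcodes, 35351 lay within the gene and mitochondrial limits, 7098 of those passed the endothelial gate, 1543 of those met the *Fabp4* rule and 739 of those also met the *Top2a* and *Mki67* rule. The 739 cells are called cycling coronary cells here, and the 804 *Fabp4* endothelial cells with 0 or 1 UMI of *Top2a* and *Mki67* are called non-cycling coronary cells.

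The study asked what loss of the transcription factor ETS1 in endothelium does to the developing ventricle at embryonic day 14.5. Droplet 3' tag libraries were made from 2 pools of *Ets1* eKO ventricles (Tie2Cre; *Ets1* fl/fl) and 2 pools of control ventricles (Tie2Cre; *Ets1* fl/+), each pool holding 3 embryos on a C57BL/6 background. The controls carry the Cre driver and 1 floxed allele, so the comparison is between embryos with both alleles floxed and embryos with 1 allele floxed. Tie2Cre is active in endothelium and also in blood cells that arise from it, embryos of both sexes were used, and the sex of the pooled embryos was not recorded. All 4 libraries carry the same batch label.

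The endothelial lining of the coronary vessels grows in the fetal ventricular wall as a plexus that is later remodelled into arteries, capillaries and veins. Its cells divide while the plexus expands, and arterial differentiation is known to go along with leaving the cell cycle. ETS factors bind DNA through a shared domain that reads a GGAA core and are widely used in endothelial genes, and ETS1 is one of several members that endothelial cells make.

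The control libraries held 12641 and 7949 barcodes with 124140739 and 76931208 UMIs, and the *Ets1* eKO libraries held 10010 and 14951 barcodes with 95131419 and 102872196 UMIs (replicates 1 and 2 in this order, here and in all pairs of values). Cycling coronary cells numbered 201 and 115 in controls against 161 and 262 in *Ets1* eKO. Their summed UMIs were 3638982 and 2189443 in controls against 2669206 and 3023154 in *Ets1* eKO. The median cycling coronary cell had 16663 and 17552 UMIs in controls against 13897 and 8963.5 in *Ets1* eKO, so the second *Ets1* eKO library was the shallowest per cell. Levels are therefore printed in CPM, for which the cells of a library are added up and each gene's share of all their UMIs is brought to the same scale, and the library is the unit of every test, with 2 libraries against 2.

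The libraries also differed in sex composition, which the genotype does not set. *Xist*, the RNA of the inactive X chromosome, was at 0 and 285 CPM in the cycling coronary cells of controls against 303 and 576 CPM in *Ets1* eKO. The Y-linked gene *Uty* was at 63.5 and 47.5 CPM in controls against 24.4 and 0 CPM in *Ets1* eKO, and *Ddx3y* was at 56.9, 29.2, 31.8 and 2.98 CPM in the same order. *Xist* was thus at 0 in the first control library, and Y-linked RNA was at or near 0 in the second *Ets1* eKO library, while the other libraries held both. The part of sex composition in the levels of other genes was not tested. Between 19 and 47 barcode sequences were shared by each pair of libraries (0.190 to 0.440% of a library), and no cycling coronary cell had a barcode that was also a cycling coronary cell of another library.

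The genes that chose the cells are given as a description. *Fabp4* stood at 6516 and 6010 CPM in the cycling coronary cells of controls against 7443 and 8442 CPM in *Ets1* eKO. *Top2a*, the topoisomerase that untangles replicated chromosomes, stood at 575, 491, 605 and 526 CPM, and *Mki67*, which coats mitotic chromosomes, at 350, 306, 347 and 281 CPM. *Pecam1* was at 465 to 516 CPM, *Cdh5* at 520 to 638 CPM, *Emcn* at 370 to 485 CPM and *Egfl7* at 493 to 552 CPM over the 4 libraries. *Tnnt2*, limited by the rule, was at 85.7 and 48.0 CPM in controls against 71.6 and 133 CPM in *Ets1* eKO. These levels follow from the rule and say nothing beyond it.

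Cells next to the limits were examined once, without a test. The 84 *Fabp4* cells with exactly 2 UMIs of *Top2a* and *Mki67* held 3602 CPM of a 52-gene list of the G2 phase and mitosis, against 3085 CPM in the 193 cells with 1 UMI, 1967 CPM in the 611 cells with 0 UMIs and 9565 CPM in the 411 cells with 10 or more. The cells just inside the limit were therefore closer to those just outside it than to the cells with many UMIs. On the *Fabp4* side, the 30 cycling cells at 0.1 to 0.15% held 864 CPM of an 11-gene endocardial list, the 52 cells at 0.05 to 0.1% held 1267 CPM and the 1091 cells under 0.05% held 2980 CPM. At least 0.1% of UMIs from *Fabp4* was also seen in 0.126 and 0.0945% of cardiomyocyte barcodes in controls against 0.1 and 0.216% in *Ets1* eKO, at median depths of 14398, 14626, 14350 and 8922 UMIs. A further 30 *Fabp4* cells, 28 of them cycling, had over 7000 genes and lay outside the limits.

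**Figure D1:**
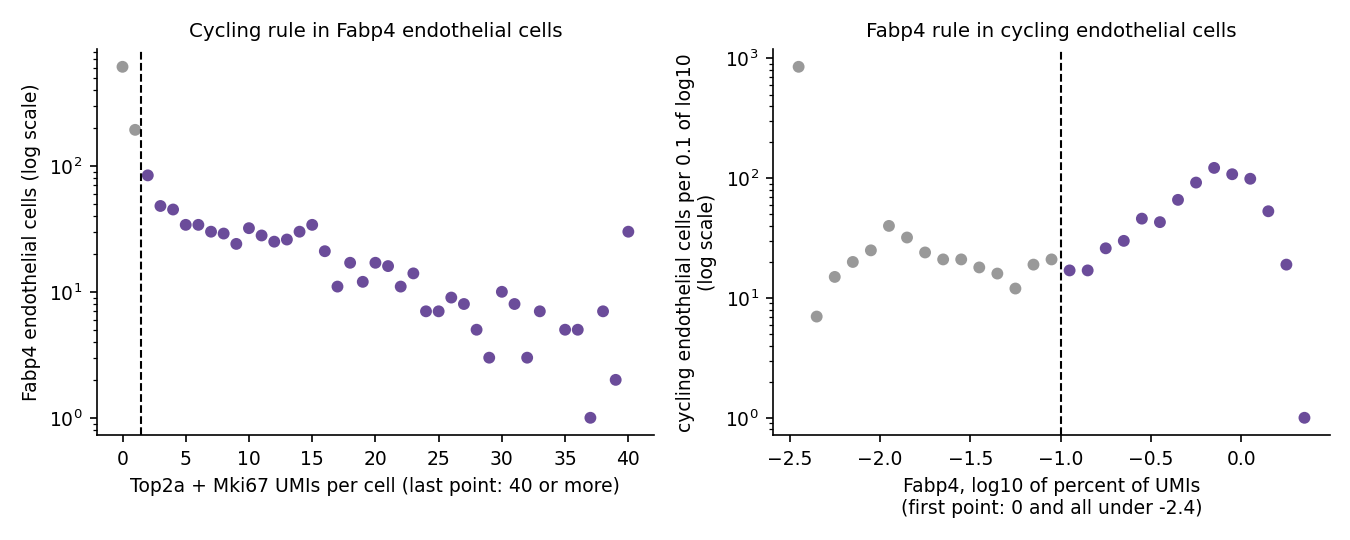
Left, number of *Fabp4* endothelial cells (log axis) by UMIs of *Top2a* and *Mki67* together, the last point holding 40 or more; right, number of cycling endothelial cells (log axis) by log10 of the percent of UMIs from *Fabp4*, the first point holding all lower values including 0. Dashed lines mark the limits of 2 UMIs and 0.1%, purple points lie inside and grey points outside them, and 611 cells sit at 0 UMIs on the left.

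*Ets1* itself was lower in the cycling coronary cells of *Ets1* eKO. Its level was 384 and 348 CPM in controls against 178 and 124 CPM in *Ets1* eKO (ENSMUSG00000032035, chr9:32636221-32757820 on mm10, plus strand). Both eKO libraries lay below both controls, and the log2 fold change was -1.21 ± 0.18 (SE, n = 2 libraries per group, edgeR adjusted p = 0.00603). In non-cycling coronary cells *Ets1* was at 337 and 296 CPM in controls against 174 and 123 CPM in *Ets1* eKO (log2 -1.03 ± 0.20, edgeR adjusted p = 0.0170). Which exons are floxed is not given in the sources used here, and a 3' tag outside the deleted part checks nothing about the deletion.

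An RNA annotated close to *Ets1* moved the other way. *Gm3331*, a long intergenic non-coding RNA whose annotated start lies 55.9 kb past the end of *Ets1* on the same strand (ENSMUSG00000099148, chr9:32813734-32834104), was at 0.275 and 0.457 CPM in controls against 49.8 and 43.7 CPM in *Ets1* eKO. These levels are 1 and 1 UMIs in controls against 133 and 132 UMIs in *Ets1* eKO, spread over 77 and 86 cells. The ratio was 136, with a counting interval of 37.2 to 1126 (edgeR adjusted p = 3.57e-07). The separation was present in non-cycling coronary cells, with 0 and 0 CPM in controls against 63.6 and 48.2 CPM in *Ets1* eKO. Whether these tags belong to *Gm3331* or to a transcript that starts elsewhere cannot be told apart with 3' tags.

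Across 10714 genes tested in the cycling coronary cells, 104 were called between *Ets1* eKO and controls at an edgeR adjusted p of at most 0.05 (0.971% of genes tested), 65 higher (0.607%) and 39 lower (0.364%) in *Ets1* eKO. At an unadjusted p under 0.05 there were 1327 of the 10714 genes, the background for the counts of list members given below. The libraries of the 2 groups were without overlap in all 104 genes, and in 44.7% of all genes tested. Of the called genes, 78 differed by more than 1 on the log2 scale, and 3 lay on the X chromosome and 0 on the Y chromosome. Over all genes tested the median log2 fold change was 0.01, and -0.06 with scaling by the total count, where 107 genes were called and 45.8% of them were higher, against 62.5% with the main scaling. DESeq2 called 50 genes, 47 of them among the 104. The count depended on single libraries: it was 207 without control 1, 197 without *Ets1* eKO 2, 332 without *Ets1* eKO 1 and 147 without control 2.

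**Figure D2:**
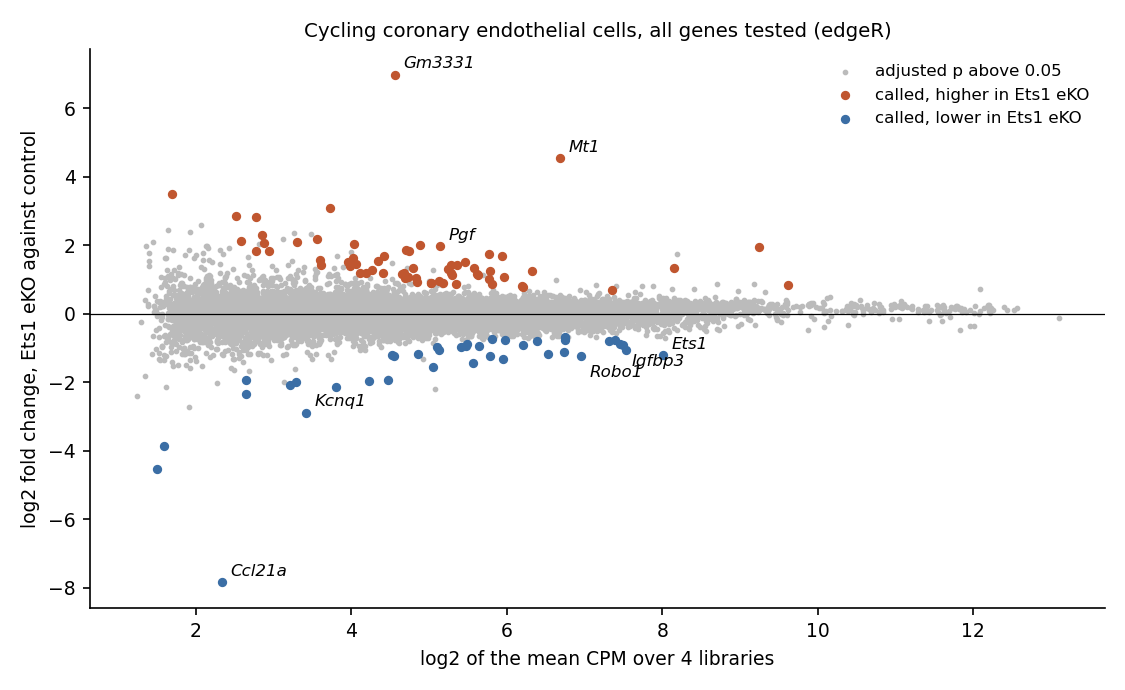
Log2 fold change of *Ets1* eKO against control (vertical axis) by log2 of the mean CPM (horizontal axis) for the 10714 genes tested in cycling coronary cells, 1 point per gene. The 65 genes called higher are in orange and the 39 called lower in blue, and *Ccl21a*, at 0 UMIs in both *Ets1* eKO libraries, is drawn at its fitted value, which is no bound.

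After *Gm3331*, the largest rise was that of *Mt1*. This metallothionein gene, whose small protein binds zinc and copper, stood at 6.05 and 12.8 CPM in controls against 218 and 176 CPM in *Ets1* eKO (ENSMUSG00000031765, chr8:94179082-94180327). Every *Ets1* eKO library was far above every control, with a log2 fold change of 4.56 ± 0.25 (edgeR adjusted p = 3.57e-07). The level was 5.36 and 5.89 CPM in non-cycling coronary controls against 287 and 189 CPM in *Ets1* eKO. The adjacent metallothionein gene *Mt2* was at 0.275 CPM in control 1 and at 0 in the other 3 libraries, so it gave no comparison. *Lgals1*, encoding the secreted sugar-binding protein galectin-1, was singled out after its values were seen, for its abundance and low p. It rose from 239 and 278 CPM in controls to 922 and 983 CPM in *Ets1* eKO (ENSMUSG00000068220, log2 1.96 ± 0.17, edgeR adjusted p = 6.98e-05).

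Other genes with the largest rises had low levels. *Chrm3*, a muscarinic acetylcholine receptor, was at 3.57 and 1.83 CPM in controls against 22.1 and 25.5 CPM in *Ets1* eKO (log2 3.10 ± 0.33, edgeR adjusted p = 0.000488). Its UMIs lay in 17 of 161 and 25 of 262 *Ets1* eKO cells. *Chrm3* was more abundant in cycling endothelial cells with *Fabp4* under 0.1% of UMIs. There it was at 175 and 139 CPM in controls against 261 and 237 CPM in *Ets1* eKO. The part of such cells in the coronary rise was not tested. *Crhbp*, a secreted binding protein of corticotropin-releasing hormone, held 3 UMIs in controls against 34 in *Ets1* eKO, a ratio of 11.6 with a counting interval of 3.65 to 59.1. *Shisa8* was at 0.550 and 2.74 CPM in controls against 8.62 and 10.9 CPM in *Ets1* eKO (log2 2.85). For these genes the groups did not overlap, but the calls of *Crhbp* and *Shisa8* ended without control 1 (log2 3.64 and 1.89) and without *Ets1* eKO 2 (3.50 and 2.65). DESeq2 called neither (3.62 and 2.80), and *Crhbp* was not called with the cycling rule applied after thinning (2.79).

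*Nxph1*, a secreted partner of neurexins, was at 1.92 and 1.37 CPM in controls against 16.5 and 7.61 CPM in *Ets1* eKO (log2 2.84), and the call ended without *Ets1* eKO 1 (2.21). The matrix gene *Spon1* was at 1.10 and 4.57 CPM in controls against 10.5 and 12.6 CPM in *Ets1* eKO (log2 2.29), and kept its call in 7 of 13 alternatives. It had none without control 1 (1.40) or *Ets1* eKO 2 (2.14), with DESeq2 (2.22), with *Fabp4* of at least 0.3% (2.10), with doublets removed (1.98) or with other cell types left out (2). *Nrg1*, the neuregulin ligand that endocardium sends to the myocardium, was at 6.32 and 1.83 CPM in controls against 13.1 and 25.8 CPM in *Ets1* eKO (log2 2.18). For all 3 genes *Ets1* eKO was above the controls in every library. *Spon1* and *Nrg1* were more abundant in cycling endothelial cells with *Fabp4* under 0.1% of UMIs, where *Nxph1* was at 0 CPM. There *Spon1* was at 105 and 118 CPM in controls against 95.6 and 101 CPM in *Ets1* eKO. *Nrg1* was there at 148 and 188 CPM in controls against 128 and 193 CPM in *Ets1* eKO. The part of such cells in the coronary rises was not tested. The *Nrg1* call ended without *Ets1* eKO 2 (1.60), with *Fabp4* of at least 0.3% (1.30) and with a limit of 4 UMIs (2.18), and in control 1 a single cell held 16 of its 23 UMIs.

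Genes with the largest falls included the potassium channel gene *Kcnq1* and the mannose receptor gene *Mrc1*. *Kcnq1* was at 22.8 and 15.1 CPM in controls against 2.25 and 2.65 CPM in *Ets1* eKO (ENSMUSG00000009545, chr7:143106362-143427042, log2 -2.89 ± 0.37, edgeR adjusted p = 0.00186). *Mrc1*, an endocytic receptor also made by macrophages and lymphatic endothelium, was at 24.2 and 21.9 CPM in controls against 5.25 and 4.63 CPM in *Ets1* eKO (log2 -2.15 ± 0.28, edgeR adjusted p = 0.00188). In both genes the highest *Ets1* eKO library was far below the lowest control, and the *Mrc1* call ended with *Fabp4* of at least 0.3% (-1.80). *Slc43a2*, an amino acid transporter gene, was at 14.3 and 16 CPM in controls against 2.62 and 3.97 CPM in *Ets1* eKO (log2 -2.08). *Tnfrsf9*, a receptor of the tumour necrosis factor receptor family, was at 14.6 and 16.9 CPM in controls against 4.5 and 2.98 CPM in *Ets1* eKO (log2 -1.99). DESeq2 called neither *Slc43a2* (-2.11) nor *Tnfrsf9* (-2).

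The remaining large falls rested on few molecules. *Ccdc85a* was at 11 and 10 CPM in controls against 1.87 and 1.98 CPM in *Ets1* eKO (log2 -2.35), with no call without control 1 (-2.29), with DESeq2 (-2.37) or with the cycling rule applied after thinning (-2.27). *Chst3*, a chondroitin sulfotransferase gene, held 30 UMIs in controls against 1 in *Ets1* eKO, a ratio of 29.3 with a counting interval of 4.87 to 1195, and its call ended without control 2 (-4.20) or *Ets1* eKO 1 (-3.75). It also ended with DESeq2 (-4.87), with *Fabp4* of at least 0.3% (-4.4) and with a limit of 4 UMIs (-4.28). *Ackr2*, a chemokine-scavenging receptor, held 36 and 2 UMIs, a ratio of 17.6 (4.53 to 151), with no call without *Ets1* eKO 2 (-3.79) or with DESeq2 (-3.96). *Ccl21a*, a lymphatic chemokine gene that shares sequence with near-identical copies, was at least 19.5-fold lower, from a floor of 3 counts over the *Ets1* eKO group. Its 40 and 20 control UMIs came from 2 cells and 1 cell, so the call describes 3 cells and not the class.

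**Figure D3:**
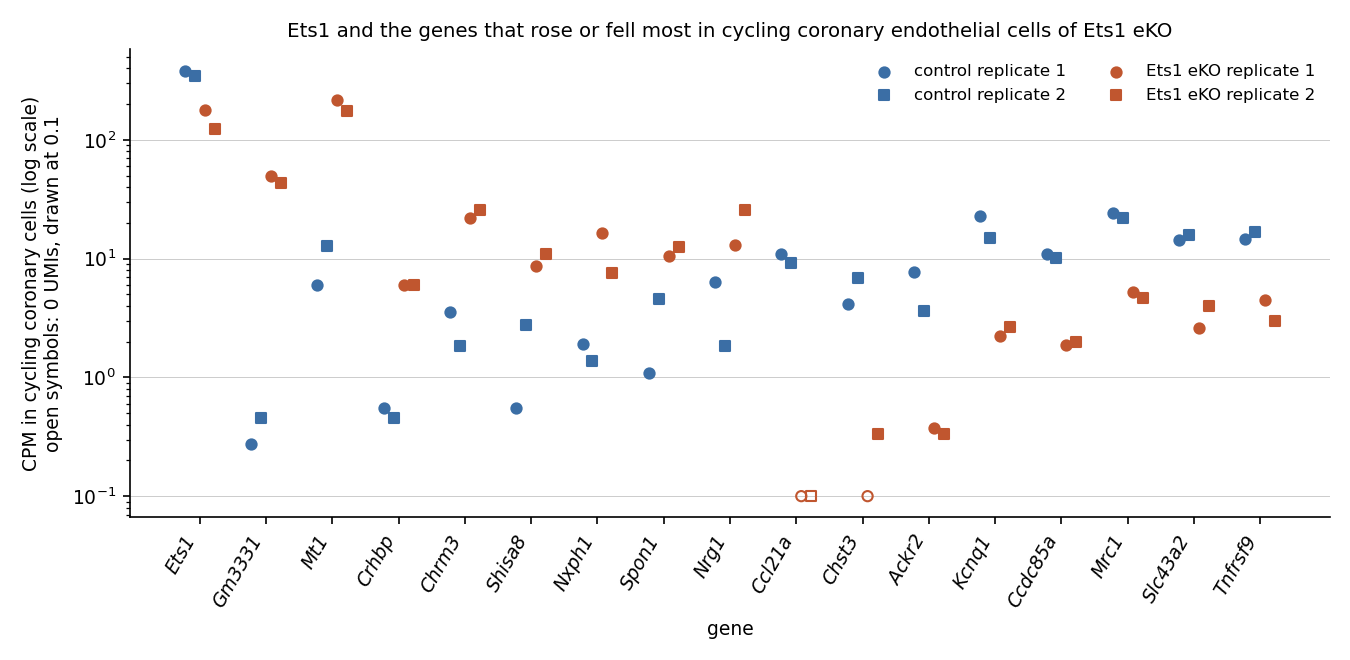
Level in the cycling coronary cells of each library (CPM, log axis) of *Ets1* and of the 8 genes with the largest rise and the 8 with the largest fall among called genes whose groups do not overlap; blue, controls; orange, *Ets1* eKO; circles, replicate 1; squares, replicate 2. Open symbols stand for 0 UMIs and are drawn at 0.1 CPM, and *Mt1* runs from 6.05 CPM in control 1 to 218 CPM in *Ets1* eKO 1.

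Genes of the cell cycle were not called in either direction by edgeR. Of a list of S phase genes, 43 of 43 were tested, 0 were called and 1 was at an unadjusted p under 0.05, with a median log2 fold change of 0.02 (-0.06 with scaling by the total count). Of the G2 and mitosis list, 52 of 52 were tested, 0 were called and 2 were at an unadjusted p under 0.05, with a median of 0.15 (0.07 with total count scaling) beside 0.01 for all genes. The summed S phase list was at 3090 and 3103 CPM in controls against 3052 and 2997 CPM in *Ets1* eKO, and the summed G2 and mitosis list at 8341 and 7658 CPM in controls against 8408 and 8497 CPM in *Ets1* eKO. *Ets1* eKO was thus slightly under controls in the first list and above them in the second. Among single members, the histone chaperone gene *Nasp* was at 281, 305, 314 and 273 CPM and *Hmgb2*, a chromatin protein gene, at 1351, 1318, 1533 and 1145 CPM in the 4 libraries, with overlapping groups. *Ube2c*, a ubiquitin-conjugating enzyme of the anaphase-promoting complex, was at 468 and 398 CPM in controls against 463 and 651 CPM in *Ets1* eKO, which also overlap.

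Promoters of these lists are shown because their genes are high together in cycling coronary cells. Promoters from RefSeq (GRCm38.p6) covering 250 bases before to 50 bases after each start were matched by symbol for 46 of the 52 G2 and mitosis genes, 31 of the 43 S phase genes and 27025 genes in all. The letters TTTGAA, the core of the cell cycle homology region element, and CCAAT, the core read by the factor NF-Y, were searched on both strands over the 300 bases. TTTGAA was in 67.4% of G2 and mitosis promoters, 16.1% of S phase promoters and 18.1% of all promoters. CCAAT was in 76.1%, 71.0% and 37.9%, and both motifs together in 54.3%, 12.9% and 7.12%. Among promoters of tested genes, TTTGAA was in 11.8%, CCAAT in 39.3% and both together in 5.02%. The 3 most abundant G2 and mitosis genes with both motifs upstream of the start are printed 5' to 3', upstream bases only, with up to 15 bases on either side of the outer motifs, and capitals mark TTTGAA and CCAAT or their reverse complements. In *Ube2c*, 1 stretch in capitals joins a CCAAT read on each strand. A match describes letters and is not evidence of a bound site.
Hmgb2, chr8:57511593-57511842, plus strand: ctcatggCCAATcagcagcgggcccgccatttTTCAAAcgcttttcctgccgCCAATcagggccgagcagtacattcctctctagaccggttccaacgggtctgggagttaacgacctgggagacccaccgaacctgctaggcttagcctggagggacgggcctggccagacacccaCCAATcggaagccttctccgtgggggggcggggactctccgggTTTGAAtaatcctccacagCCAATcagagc
Ube2c, chr2:164769686-164769920, plus strand: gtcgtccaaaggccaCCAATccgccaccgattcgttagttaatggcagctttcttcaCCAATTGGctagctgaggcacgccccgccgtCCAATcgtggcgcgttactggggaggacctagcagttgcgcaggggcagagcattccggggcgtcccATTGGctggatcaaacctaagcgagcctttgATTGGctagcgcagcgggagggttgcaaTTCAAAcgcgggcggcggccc
Tubb4b, chr2:25224703-25224938, minus strand: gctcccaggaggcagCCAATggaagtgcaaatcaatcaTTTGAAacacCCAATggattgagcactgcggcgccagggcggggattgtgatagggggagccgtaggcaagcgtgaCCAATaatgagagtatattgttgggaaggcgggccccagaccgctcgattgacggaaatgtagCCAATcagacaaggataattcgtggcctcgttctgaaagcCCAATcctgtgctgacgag

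The letters TTTCCCGC and TTTGGCGC, which the E2F factors of the G1 to S transition are known to read, were searched the same way. At least 1 of them was in 32.3% of S phase promoters (10 of 31), 2.17% of G2 and mitosis promoters (1 of 46) and 1.63% of all promoters. Among promoters of tested genes the share was 3.49%. The 3 most abundant S phase genes with either motif upstream are printed with 15 bases on either side and the motif in capitals.
Hells, chr19:38930913-38930950, plus strand: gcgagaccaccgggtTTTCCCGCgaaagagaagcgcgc
Mcm6, chr1:128359730-128359830, minus strand: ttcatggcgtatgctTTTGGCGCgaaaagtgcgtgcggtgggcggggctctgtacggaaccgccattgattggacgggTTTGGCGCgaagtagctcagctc
Pola1, chrX:93632271-93632308, minus strand: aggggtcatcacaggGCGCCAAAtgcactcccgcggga
The letters CCGGAAGT, a strong match for ETS factors, were in 4% of all promoters and 9.37% of promoters of tested genes. They were in 0 of 42 matched promoters of the 65 genes called higher in *Ets1* eKO and in 0 of 32 of the 39 called lower, which says only that these letters are not in these windows.

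Cyclins and their inhibitors were not called either. Of 19 cyclins, cyclin-dependent kinases and G1 genes tested, 0 were called by edgeR and 7 were at an unadjusted p under 0.05 (1327 of 10714 over all genes), with a median of 0.13 (0.05 with total count scaling). *Ccnd1*, the D-type cyclin that starts G1 progression, was at 359 and 286 CPM in controls against 412 and 377 CPM in *Ets1* eKO, and *Cdk4* at 310, 274, 293 and 375 CPM. Of 15 of 17 cyclin-dependent kinase inhibitors and quiescence genes tested, 0 were called by edgeR and 3 were at an unadjusted p under 0.05, with a median of 0.18 (0.10 with total count scaling). *Cdkn1c*, encoding the inhibitor p57, was at 508 and 338 CPM in controls against 555 and 913 CPM in *Ets1* eKO (log2 0.87, edgeR adjusted p = 0.136), and 5 of 13 alternatives called it (0.46 to 1.18 over all). Both *Ets1* eKO libraries were above both controls for *Ccnd1* and *Cdkn1c*, without passing the test, beside 44.7% of all genes tested whose groups did not overlap.

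**Figure D4:**
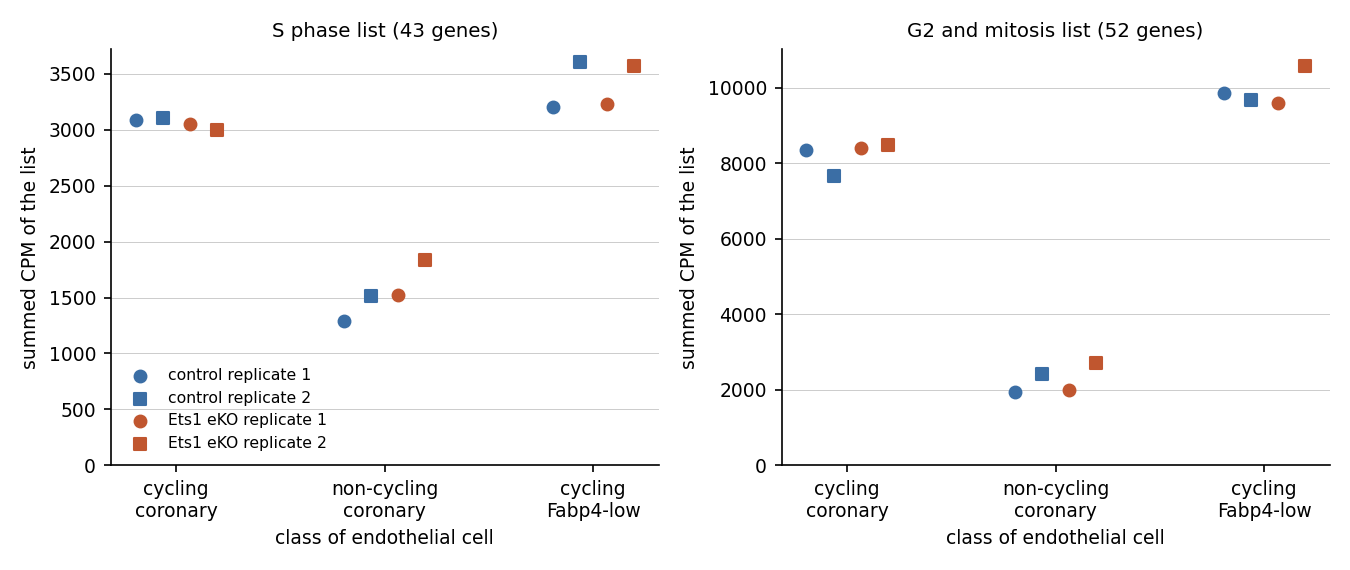
Summed level (CPM, axes from 0) of the S phase list (43 genes) and the G2 and mitosis list (52 genes) in each library, by cell class, with controls in blue and *Ets1* eKO in orange. In cycling coronary cells the S phase list lies between 2997 and 3103 CPM and the G2 and mitosis list between 7658 and 8497 CPM.

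The share of *Fabp4* endothelial cells that were cycling had nearly the same mean in the 2 groups once every cell was thinned to 3000 UMIs. It was 33.2% (132 of 397 cells, exact binomial 95% interval 28.6 to 38.1) and 29.0% (61 of 210, 23.0 to 35.7) in controls against 32.2% (105 of 326, 27.2 to 37.6) and 30.3% (165 of 545, 26.4 to 34.3) in *Ets1* eKO. The groups overlapped, with means of 31.1% ± 2.97 and 31.2% ± 1.37 (SD, n = 2), and the exact two-sided permutation p was 1. The share counts UMIs of 2 genes of the rule, so it is a description. With 2 libraries against 2 the smallest possible exact p is 0.33, so this test cannot show that the shares are equal. The thinning left out 4, 2, 6 and 53 shallower cells. Without thinning the shares were 50.1 and 54.2% in controls against 48.5 and 43.8% in *Ets1* eKO, with the lowest value in the shallowest library. As a background for free RNA, 2 UMIs of *Top2a* and *Mki67* at the same depth were found in 2.07 and 2.73% of globin-rich barcodes in controls against 2.20 and 4.03% in *Ets1* eKO, whose median depths were 7876, 6409, 5836.5 and 6148 UMIs. With a limit of 1 UMI the shares were 46.1 and 44.8% in controls against 48.8 and 48.8% in *Ets1* eKO, without overlap and with an exact p of 0.33. The sign of the difference of 0.0934 points was not stable: it was -2.01 without control 2, -0.873 without *Ets1* eKO 1, 2.19 without control 1 and 1.06 without *Ets1* eKO 2.

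Within the cycling coronary cells, the balance of late and early cycle RNA was compared as the ratio of UMIs of the G2 and mitosis list to UMIs of the S phase list. The ratio was 2.70 and 2.47 in controls against 2.75 and 2.84 in *Ets1* eKO. Both *Ets1* eKO libraries were above both controls by a small margin, but the groups overlapped with doublets removed (exact p 0.667) and with the cycling rule applied after thinning (exact p 1). The mean log2 ratio was 1.37 ± 0.0914 in controls against 1.48 ± 0.0293 in *Ets1* eKO (SD, n = 2), with an exact two-sided permutation p of 0.33, the smallest that 2 libraries against 2 can give. The difference of 0.115 was 0.0197 when the cycling rule was applied after thinning, and 0.0499 to 0.179 when any 1 library was left out. The median cell took 71.4 and 72.5% of its UMIs of both lists from the G2 and mitosis list in controls against 71.7 and 71.9% in *Ets1* eKO.

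Genes of capillary endothelium included 2 called falls. Of 16 capillary and coronary genes, 14 were tested, 0 were called higher and 2 lower, with a median of -0.12 (-0.20 with total count scaling), and 6 were at an unadjusted p under 0.05. *Igfbp3*, a secreted binding protein of insulin-like growth factors, was at 256 and 224 CPM in controls against 103 and 138 CPM in *Ets1* eKO (ENSMUSG00000020427, log2 -0.92 ± 0.17, edgeR adjusted p = 0.0204). *Gpihbp1*, which carries lipoprotein lipase to the capillary lumen, was at 225 and 185 CPM in controls against 120 and 104 CPM in *Ets1* eKO (ENSMUSG00000022579, log2 -0.81 ± 0.16, edgeR adjusted p = 0.0283). Both eKO libraries lay below both controls in both genes, but the *Igfbp3* call ended with *Fabp4* of at least 0.3% (-0.75) and the *Gpihbp1* call without control 1 (-0.67). The summed list was at 2356 and 2112 CPM in controls against 1740 and 1802 CPM in *Ets1* eKO.

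Genes of sprouting included 2 called rises among 16 of 16 tip cell and sprouting genes tested, with 0 called lower and a median of 0.02 (-0.05 with total count scaling). *Pgf*, placental growth factor, a ligand of the receptor FLT1, was at 13.2 and 16.9 CPM in controls against 56.6 and 54.2 CPM in *Ets1* eKO (ENSMUSG00000004791, chr12:85166635-85177790, log2 1.98 ± 0.20, edgeR adjusted p = 0.000238). *Adm*, encoding the vascular peptide adrenomedullin, was at 23.1 and 27.9 CPM in controls against 61.1 and 45.0 CPM in *Ets1* eKO (log2 1.15 ± 0.20, edgeR adjusted p = 0.0156). The groups were well apart for both ligands. *Esm1*, a tip cell marker, was at 17.6, 20.6, 20.2 and 13.6 CPM with overlapping groups.

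Of 15 genes of vascular endothelial growth factor (VEGF), angiopoietin and guidance receptors and their regulators, 14 were tested, 1 was called higher and 2 lower, with a median of -0.17 (-0.25 with total count scaling). *Robo1*, a receptor of the SLIT guidance proteins, was at 147 and 207 CPM in controls against 71.2 and 71.8 CPM in *Ets1* eKO (log2 -1.22 ± 0.18, edgeR adjusted p = 0.00462). *Sox18*, a transcription factor gene of vascular and lymphatic endothelium, was at 110 and 86.3 CPM in controls against 45.3 and 53.9 CPM in *Ets1* eKO (log2 -0.91 ± 0.17, edgeR adjusted p = 0.0204). *Vegfa*, a ligand more often made by tissue around vessels, was at 16.8 and 18.3 CPM in controls against 30.7 and 37.7 CPM in *Ets1* eKO (log2 1.05 ± 0.21, edgeR adjusted p = 0.0246). No library of 1 group reached into the other for these genes. The *Sox18* call ended without control 1 (-0.73) and the *Vegfa* call without *Ets1* eKO 2 (0.89), with DESeq2 (1.05) and with a limit of 4 UMIs (1.04). The receptor gene *Kdr*, at 506 and 476 CPM in controls against 484 and 430 CPM in *Ets1* eKO, and *Robo4*, at 46.4, 59.4, 39.0 and 35.4 CPM, were not called (log2 -0.03 and -0.42).

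Matrix genes included 3 called rises. Of 20 secreted matrix and basement membrane genes, 19 were tested, 3 were called higher and 0 lower, with a median of 0.12 (0.04 with total count scaling). Of the 19, 13 were positive and 6 negative, and 7 were at an unadjusted p under 0.05 (1327 of 10714 over all genes). Over all genes, 65 of the 104 called were higher. *Igfbp7*, a secreted protein of vascular basement membrane, was at 28.3 and 16.4 CPM in controls against 71.2 and 47.6 CPM in *Ets1* eKO (log2 1.42 ± 0.25, edgeR adjusted p = 0.0153). *Fbn1*, fibrillin-1 of elastic microfibrils, was at 54.4 and 56.2 CPM in controls against 91.8 and 90.6 CPM in *Ets1* eKO (log2 0.80 ± 0.15, edgeR adjusted p = 0.0199). *Mgp*, matrix Gla protein, was at 34.9 and 9.59 CPM in controls against 66.3 and 65.5 CPM in *Ets1* eKO (log2 1.53 ± 0.32, edgeR adjusted p = 0.0413). All 3 had both *Ets1* eKO libraries above both controls. In cycling endothelial cells with *Fabp4* under 0.1% of UMIs, controls held *Fbn1* at 335 and 338 CPM and *Mgp* at 343 and 345 CPM. *Igfbp7* was there at 36.5 and 23.6 CPM. In the cycling coronary cells the summed endocardial list was at 193 and 182 CPM in controls against 243 and 360 CPM in *Ets1* eKO. The part of endocardial cells in these rises was not tested. The *Fbn1* call ended without control 1 (0.76), with DESeq2 (0.80) and with *Fabp4* of at least 0.3% (0.80), and the *Mgp* call ended with *Fabp4* of at least 0.3% (0.93), with DESeq2 (1.63) and with total count scaling (1.45).

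Arterial and venous genes were not called. Of 18 arterial genes, 17 were tested and 0 called by edgeR, with 8 at an unadjusted p under 0.05 (1327 of 10714 over all genes) and a median of -0.16 (-0.24 with total count scaling), 11 of the 17 being negative. *Dll4*, the Notch ligand of arterial and tip cells, was at 78.6 and 74.9 CPM in controls against 49.1 and 50.3 CPM in *Ets1* eKO (log2 -0.55, edgeR adjusted p = 0.132). *Gja4*, encoding an arterial connexin, was at 51.4, 48.9, 37.5 and 47.3 CPM (log2 -0.16). *Gja5*, a connexin gene of mature arteries, was at 9.62 and 15.5 CPM in controls against 5.99 and 6.62 CPM in *Ets1* eKO (log2 -0.86, edgeR adjusted p = 0.326). In these 3 genes both *Ets1* eKO libraries were below both controls, but none passed the test, and the groups were without overlap in 44.7% of all genes tested. Of 11 venous genes, 10 were tested and 0 called by edgeR, with 5 at an unadjusted p under 0.05 and a median of -0.10 (-0.18 with total count scaling). The venous regulator gene *Nr2f2* was at 124, 80.8, 100 and 105 CPM, with the *Ets1* eKO libraries between the controls, and *Nrp2* was at 258, 273, 199 and 159 CPM (log2 -0.49).

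Of 14 ETS factor genes, 13 were tested and *Ets1* was the 1 called, with a median of -0.29 (-0.37 with total count scaling) and 10 of 13 negative. *Etv4*, an ETS factor gene outside that list, was at 17.6 and 14.2 CPM in controls against 37.5 and 33.4 CPM in *Ets1* eKO. Both *Ets1* eKO libraries were higher, and *Etv4* was called (log2 1.20 ± 0.21, edgeR adjusted p = 0.0141), though not by DESeq2 (1.22). Of 17 Notch pathway genes, 13 were tested and 1, *Nrg1*, was called higher, with a median of -0.12 (-0.19 with total count scaling). Of 15 junction and adhesion genes, 12 were tested and 0 called by edgeR, 1 at an unadjusted p under 0.05, with a median of -0.06 (-0.13 with total count scaling). *Itgb1*, the beta-1 integrin gene, was at 686, 787, 935 and 681 CPM, and *Icam2* at 454, 469, 493 and 558 CPM. The junction gene *Cldn5* was at 300 and 253 CPM in controls against 226 and 167 CPM in *Ets1* eKO (log2 -0.42, edgeR adjusted p = 0.354).

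Some other genes that the study names were examined, and none of those in this paragraph was called in the cycling cells. *Hmcn1*, the matrix protein hemicentin-1, was at 287 and 373 CPM in controls against 238 and 192 CPM in *Ets1* eKO (log2 -0.54, edgeR adjusted p = 0.22). *Slit2*, a ligand of ROBO receptors, was at 84.6, 90.4, 62.9 and 87.7 CPM (log2 -0.13), and *Col18a1*, a basement membrane collagen, at 487, 532, 519 and 434 CPM (log2 -0.02). *Hmcn1* had both *Ets1* eKO libraries below both controls, *Slit2* had its second *Ets1* eKO library between the controls, and *Col18a1* overlapped. Groups without overlap were found for 44.7% of all genes tested. *Acvrl1*, a receptor of bone morphogenetic proteins, was at 32.7, 25.1, 15.4 and 16.9 CPM (log2 -0.79, edgeR adjusted p = 0.142). *Rgcc* was at 216, 137, 129 and 146 CPM (log2 -0.30), and *Dab2* at 43.7, 48.0, 28.1 and 47.0 CPM (log2 -0.19). *Dlk1*, a non-canonical Notch ligand, was at 6.05 and 0.914 CPM in controls against 8.24 and 29.4 CPM in *Ets1* eKO (log2 2.32, edgeR adjusted p = 0.0942), and over 12 alternatives it ran from 1.11 to 4.38 and was called in 6.

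Housekeeping and stress genes gave no calls. Of 16 glycolysis genes, 16 were tested and 0 called by edgeR, 0 at an unadjusted p under 0.05, with a median of 0.14 (0.06 with total count scaling). Of 90 nuclear genes of the respiratory chain, 85 were tested and 0 called, 6 at an unadjusted p under 0.05, with a median of 0.23 (0.15 with total count scaling) and 81 of 85 positive. Of 13 mitochondrially encoded genes, 13 were tested and 0 called, 3 at an unadjusted p under 0.05, with a median of -0.22 (-0.30 with total count scaling), and their sum was 24954 and 25559 CPM in controls against 19087 and 19883 CPM in *Ets1* eKO. The mitochondrial sum was thus lower in both *Ets1* eKO libraries, while the nuclear list leaned the other way. Of 82 cytosolic ribosomal protein genes, 79 were tested and 0 called, 0 at an unadjusted p under 0.05, with a median of 0.15 (0.07 with total count scaling). Of 16 immediate early and stress genes, 15 were tested and 0 called, 3 at an unadjusted p under 0.05, with a median of -0.11 (-0.19 with total count scaling). Of 9 transcripts often raised by technical causes, such as *Malat1* at 4154, 4614, 6072 and 3782 CPM, 0 were called and 0 were at an unadjusted p under 0.05, with a median of 0.24 (0.17 with total count scaling).

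Of 16 imprinted growth genes, 15 were tested and 0 called by edgeR, 6 at an unadjusted p under 0.05, with a median of 0.30 (0.22 with total count scaling) and 12 of 15 positive. *Mest* was at 1903, 1816, 1757 and 1876 CPM, and the non-coding RNA *H19* at 1103 and 832 CPM in controls against 1363 and 1154 CPM in *Ets1* eKO (log2 0.45). *H19* was higher in both *Ets1* eKO libraries than in both controls (44.7% of all genes tested had groups without overlap), and *Mest* overlapped. All 6 sex-linked genes were tested and 0 called by edgeR, 5 at an unadjusted p under 0.05, with a median of -1.47 (-1.54 with total count scaling), and their levels followed the sex composition given above.

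Markers of other cell types were measured in the same cells. All 13 cardiomyocyte genes outside the rule were tested and positive, with a median of 0.52 (0.44 with total count scaling) and 1 called higher. Their sum was 793 and 511 CPM in controls against 738 and 1183 CPM in *Ets1* eKO, the most abundant being *Tpm1* at 276, 279, 343 and 337 CPM, and none was at 0. *Tnni1*, a slow troponin gene, was at 35.2 and 24.2 CPM in controls against 60.3 and 126 CPM in *Ets1* eKO (log2 1.70 ± 0.29, edgeR adjusted p = 0.0131), and was not called by DESeq2 (1.72) or with *Fabp4* of at least 0.3% (1.58). *Tnnt1*, a troponin gene outside the list that the study uses as a marker of compact cardiomyocytes, was at 27.2 and 25.1 CPM in controls against 91 and 75.7 CPM in *Ets1* eKO. It was higher in both *Ets1* eKO libraries (log2 1.74 ± 0.17, edgeR adjusted p = 0.000238) and was called in all 13 alternatives (1.48 to 1.86), and in non-cycling coronary cells (1.09). The cardiomyocyte sum was highest in the shallowest library and overlapped between groups, and its part in the called genes was not tested.

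Endocardial genes leaned towards *Ets1* eKO at low level. Of 11 endocardial genes, 9 were tested, 3 were called higher and 0 lower (0.607% and 0.364% over all genes), with a median of 1.01 (0.94 with total count scaling). Of the 9, 7 were positive and 2 negative, and 8 were at an unadjusted p under 0.05 (1327 of 10714 over all genes). The summed list was at 193 and 182 CPM in controls against 243 and 360 CPM in *Ets1* eKO, against 2761 to 3111 CPM in the cycling *Fabp4*-low endothelium. *Cdh11*, a mesenchymal cadherin gene, was at 31.3 and 16.4 CPM in controls against 46.8 and 61.5 CPM in *Ets1* eKO (log2 1.20, edgeR adjusted p = 0.0344). *Tmem108*, the most abundant of the list, was at 33.0 and 42.9 CPM in controls against 56.6 and 86.0 CPM in *Ets1* eKO (log2 1.01, edgeR adjusted p = 0.0374). The third was *Nrg1*, given above, and both *Ets1* eKO libraries were above both controls for all 3. The *Cdh11* call ended with *Fabp4* of at least 0.3% (0.81) and with other cell types left out (1.13), and the *Nrg1* call with *Fabp4* of at least 0.3% (1.30). The *Tmem108* call ended without control 1 (0.80), without *Ets1* eKO 2 (0.68), with doublets removed (0.74), with other cell types left out (0.95), with DESeq2 (1) and with total count scaling (0.94). The part of endocardial cells near the *Fabp4* limit in these calls was not tested.

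Lists of further cell types gave 1 call. Of 7 lymphatic genes, 4 were tested and *Ccl21a* was called lower, with a median of -0.44 (-0.51 with total count scaling, and -0.44 with *Ccl21a* at its bound), and their sum was 90.1 and 137 CPM in controls against 64.4 and 65.8 CPM in *Ets1* eKO, led by *Flt4*. No gene was called by edgeR in the other 6 lists. For fibroblasts 6 of 9 genes were tested (1 at an unadjusted p under 0.05, median 0.03, or -0.05 with total count scaling), and their sum was 167, 63.5, 148 and 98.2 CPM, led by *Col3a1*. For epicardium 1 of 8 was tested (0 at p under 0.05, median 0.04, or -0.04 with total count scaling), with a sum of 106 to 114 CPM that was nearly all *Wt1*, while *Krt8* was at 0. For immune cells 3 of 10 were tested (0 at p under 0.05, median 0.28, or 0.20 with total count scaling), with a sum of 29.4, 8.68, 9.74 and 43.0 CPM led by *Laptm5*.

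For mural cells 5 of 10 genes were tested (2 at an unadjusted p under 0.05, median 0.19, or 0.12 with total count scaling), with a sum of 127 to 153 CPM led by *Abcc9*, and *Higd1b* was at 0. For valve endocardium and cushion 6 of 10 were tested (0 at p under 0.05, median -0.12, or -0.19 with total count scaling), with a sum of 67.5 to 85.9 CPM led by *Tbx20*. For red blood cells 6 of 9 were tested (1 at p under 0.05, median 0.65, or 0.58 with total count scaling), and the sum was 4268 and 866 CPM in controls against 5105 and 2151 CPM in *Ets1* eKO, led by *Hbb-bs*, whose tags may be shared with *Hbb-bt*. Of these globin UMIs, 92.5 to 97.7% came from 5 cells in each library. Over all cycling coronary cells, the fibroblast, epicardial, immune, erythroid and mural lists took a median of 0.0395% of UMIs, 34 cells were over 0.2% and 7 over 10%. Doublets were not removed. A nearest-neighbour score against simulated doublets marked 14 and 4 cycling coronary cells in controls against 11 and 30 in *Ets1* eKO, and 118 genes were called without them.

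Cycling and non-cycling coronary cells were then compared side by side, as a description without a test because the rule used this contrast. Of 3680 genes with a mean of at least 50 CPM in either class, 405 were higher and 282 lower in all 4 cycling libraries than in all 4 non-cycling ones. *Nusap1*, a spindle protein gene, was at 151, 127, 178 and 141 CPM in cycling cells and at 3.57, 2.95, 3.24 and 9.46 CPM in non-cycling cells, a ratio of 31.0. Other large ratios were those of the mitotic kinesin gene *Kif11* (24.9), the linker histone genes *Hist1h1b* (24.6) and *Hist1h1a* (19.1), the spindle midzone gene *Prc1* (19.5), the histone gene *Hist1h2ap* (18.6), the centromere gene *Cenpf* (15.1), the mitotic kinase gene *Plk1* (14.3) and the cohesin acetyltransferase gene *Esco2* (13.0). All of them act in replication or mitosis.

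Genes lower in cycling cells included arterial ones. *Gja5* was at 9.62, 15.5, 5.99 and 6.62 CPM in cycling cells and at 105, 96.3, 53.2 and 34.5 CPM in non-cycling cells, a ratio of 7.65. *Gja4* was at 51.4, 48.9, 37.5 and 47.3 CPM in cycling cells and at 226, 253, 167 and 192 CPM in non-cycling cells, a ratio of 4.53. In both connexin genes every non-cycling library was above every cycling one. Other genes of this kind were *Plxdc2* (5.32), *Slc45a4* (4.4), *Igfbp2* (3.77), *Nkain2* (3.67), the chemokine gene *Cxcl12* (3.66), *Stmn2* (3.46), the potassium channel gene *Kcnj8* (3.24) and the CXCL12 receptor gene *Cxcr4* (3.17). The summed arterial list was at 1753, 1764, 1519 and 1471 CPM in cycling cells and at 3281, 3767, 2860 and 2215 CPM in non-cycling cells. Non-cycling cells had median depths of 9109, 9198, 8374 and 5352 UMIs, below those of the cycling cells of the same library, and a limit on UMIs of 2 genes favours deeper cells.

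In non-cycling coronary cells, 69 of 9853 genes were called between *Ets1* eKO and controls (0.700%), 47 higher and 22 lower, with 991 at an unadjusted p under 0.05, and the groups did not overlap for 67 of them, against 40.5% of all genes tested. The count was 497 without *Ets1* eKO 1, 159 without *Ets1* eKO 2, 110 without control 2 and 49 without control 1, and DESeq2 called 27. Of the 104 genes called in cycling cells, 97 were tested in non-cycling cells and 31 were called in both, which is 29.8% of the first list and 44.9% of the second. The classes come from the same libraries, so the overlap is a description. *Gja5* was called in the non-cycling cells (log2 -1.15, edgeR adjusted p = 0.0143). *Dlk1*, at 1.34 and 1.96 CPM in non-cycling controls against 24 and 29.8 CPM in *Ets1* eKO, was called too (log2 4.15).

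Whether the eKO effect differed between cycling and non-cycling coronary cells was tested with an interaction term, keeping the library as a block. Of 10746 genes, 2 were called (0.0186%), 1 in each direction, with 543 at an unadjusted p under 0.05, and DESeq2 called 0, with 35 at an unadjusted p under 0.05. On simulated counts the edgeR fit of this term called 7.92% of genes set to differ 2-fold and 70.7% of those set to differ 4-fold. The low count of calls therefore does not show that the effect was equal in the 2 classes. *Hba-x*, an embryonic globin gene, was called by edgeR with a difference of -4.81 (adjusted p = 0.0404). It was at 7.42, 1.83, 1.87 and 5.95 CPM in cycling cells and at 4.02, 3.93, 4.54 and 158 CPM in non-cycling cells. Only the second *Ets1* eKO library stood out, with 335 UMIs in the non-cycling cells, 186 of them in 1 cell. The call ended without that library (-1.65), without control 1 (-3.30), with DESeq2 (-3.17), with the rule applied after thinning (-2.27) and when cells over 0.2% of other cell types' UMIs were left out (-0.37). The count of called genes was 7 without control 1, 4 without control 2, 51 without *Ets1* eKO 1 and 17 without *Ets1* eKO 2. For *Pgf*, at 42.0 and 37.3 CPM in non-cycling controls against 69.4 and 64.8 CPM in *Ets1* eKO, the difference was 1.20 and not called (edgeR adjusted p = 0.275). The S phase list had a median difference of -0.46, beside 0.00 for all genes, with 0 of 43 called by edgeR and 13 at an unadjusted p under 0.05, and the G2 and mitosis list had -0.14 with 0 of 52 called and 3 at an unadjusted p under 0.05. The summed S phase list stood at 1289 and 1513 CPM in non-cycling controls against 1522 and 1835 CPM in *Ets1* eKO. The rule split these 2 classes by *Top2a* and *Mki67* at a fixed number of UMIs, so the values of both lists are a description. Non-cycling cells had median depths of 9109 and 9198 UMIs in controls against 8374 and 5352 UMIs in *Ets1* eKO. The part of depth in these list differences was not tested.

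Cycling endothelial cells with less *Fabp4* served as a second comparison. These 1143 cells (214 and 203 in controls, 258 and 468 in *Ets1* eKO, median depths of 11323, 11793, 10314 and 6768.5 UMIs) passed the same gate and the cycling rule with *Fabp4* under 0.1% of UMIs, and were rich in the endocardial list. In them 135 of 11559 genes were called (1.17%), 63 higher and 72 lower, or 128 with 31.2% higher under total count scaling against 46.7% with the main scaling. The groups were without overlap in all 135, against 45.9% of all genes tested, and the count was 662 without *Ets1* eKO 1 and 370 without *Ets1* eKO 2. Of the 104 genes called in cycling coronary cells, 90 were tested and 28 were called here as well, which is 26.9% of the first list and 20.7% of the second, in cells of the same libraries. *Ets1* was at 263 and 252 CPM in controls against 122 and 92.6 CPM in *Ets1* eKO. It was thus lower in *Ets1* eKO in this class too (log2 -1.18 ± 0.16, edgeR adjusted p = 0.00316).

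The interaction test called 97 of 11880 genes for a different eKO effect in cycling coronary and cycling *Fabp4*-low cells (0.816%), 79 with the higher log2 fold change in coronary cells and 18 with the lower, and 935 at an unadjusted p under 0.05. *Nrxn3*, a neurexin adhesion gene, was at 15.4 and 7.76 CPM in coronary controls and at 50.2 and 44.3 CPM in coronary *Ets1* eKO cells. In *Fabp4*-low cells it was at 510 and 513 CPM in controls against 478 and 480 CPM in *Ets1* eKO. The gene was thus higher in *Ets1* eKO where it is scarce (log2 2.02) and not where it is abundant (-0.01), a difference of 2.02 ± 0.21 (edgeR adjusted p = 8.72e-05). *Pcdh7*, a protocadherin gene, was at 25 and 18.3 CPM in coronary controls against 49.1 and 63.2 CPM in *Ets1* eKO, against 537, 608, 468 and 590 CPM in *Fabp4*-low cells, a difference of 1.42 ± 0.17. *Ltbp1*, which tethers latent TGF-beta in the matrix, was at 39.0, 43.4, 64.4 and 76.7 CPM in coronary and at 340, 317, 242 and 243 CPM in *Fabp4*-low cells, a difference of 1.23 ± 0.14. All 3 were far more abundant in *Fabp4*-low cells, whose part in the low coronary values was not tested. With *Fabp4* of at least 0.3% the calls in coronary cells alone ended for *Nrxn3* (1.54), *Pcdh7* (1.27) and *Ltbp1* (0.58), and that of *Ltbp1* also ended without control 1 (0.77) and with DESeq2 (0.86).

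*Ncam1*, a neural cell adhesion gene, was at 35.2, 48.4, 78.7 and 86.7 CPM in coronary cells and at 152, 156, 126 and 106 CPM in *Fabp4*-low cells, a difference of 1.44 ± 0.17. Its rise in coronary cells (log2 1.09) was also called in the non-cycling class (1.14). *S100a16*, a calcium-binding protein gene, was at 436, 413, 335 and 339 CPM in coronary cells and at 92.0 and 113 CPM in *Fabp4*-low controls against 33.2 and 33.0 CPM in *Ets1* eKO. Its fall was called in *Fabp4*-low cells (log2 -1.55) and not in coronary cells (-0.26), and the difference was 1.29 ± 0.15. *Mt1* (1.37, edgeR adjusted p = 0.00204), *Chrm3* (2.39), *Pgf* (2.44, edgeR adjusted p = 0.00250) and *Lgals1* (0.75, edgeR adjusted p = 0.000366) also differed, each with the higher log2 fold change in coronary cells.

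Genes with the lower log2 fold change in coronary cells included *Col15a1*, a collagen gene of basement membranes. It was at 167, 206, 263 and 174 CPM in coronary cells and at 7.66 and 11.4 CPM in *Fabp4*-low controls against 39.8 and 37.9 CPM in *Ets1* eKO, so that its rise was called in *Fabp4*-low cells (log2 2.11), a difference of -1.83 ± 0.23. *Akap12*, a kinase scaffold gene, was at 347, 387, 358 and 304 CPM in coronary and at 292, 338, 552 and 575 CPM in *Fabp4*-low cells, a difference of -1 ± 0.11. In *Fabp4*-low cells both *Ets1* eKO libraries were above both controls for these 2 genes, while the coronary libraries overlapped. *Zfpm2*, a cofactor gene of GATA factors, was at 216, 277, 178 and 190 CPM in coronary and at 204, 242, 275 and 264 CPM in *Fabp4*-low cells, a difference of -0.69 ± 0.11. *Dock6* was at 95.1, 119, 82.4 and 87.7 CPM in coronary and at 168, 187, 236 and 227 CPM in *Fabp4*-low cells, a difference of -0.71 ± 0.12. The libraries moved in opposite directions in the 2 classes for *Zfpm2* and *Dock6*. *Hba-x* was again called (-6.20), from 1584 UMIs in *Fabp4*-low *Ets1* eKO 2 of which 667 lay in 1 cell, and the call ended without that library (-2.35) and with doublets removed (-1.08). The count of called genes was 206 without control 2 and 148 without *Ets1* eKO 1.

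**Figure D5:**
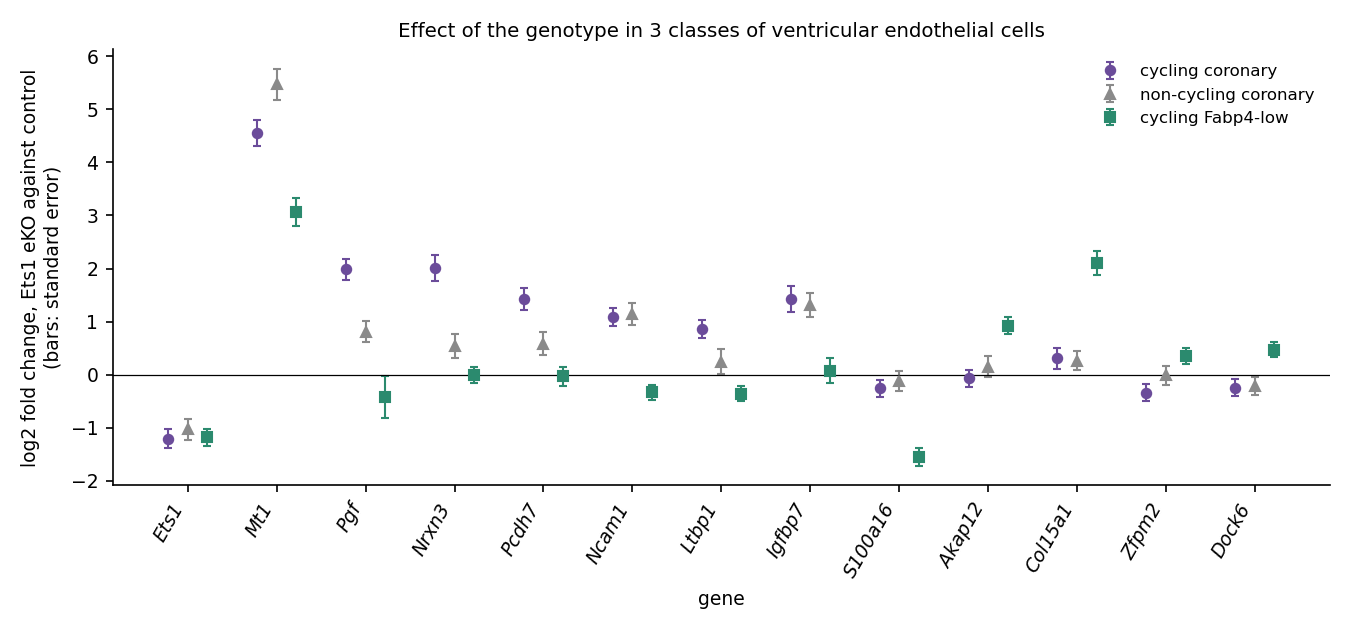
Log2 fold change of *Ets1* eKO against control with its standard error for 13 genes in cycling coronary, non-cycling coronary and cycling *Fabp4*-low cells, each fitted over 2 libraries per group. *Ets1* was near the same value in all 3 classes (-1.21, -1.03 and -1.18), and *Nrxn3* was at 2.02 in cycling coronary cells.

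By list, the interaction with *Fabp4*-low cells called genes for a different eKO effect, not for a different level. The log2 fold change was higher in coronary cells for 6 immediate early and stress genes (median difference 0.64, beside 0.01 for all genes), 4 endocardial genes (median 1.11) and 2 arterial genes. It was lower in coronary cells for 5 erythroid genes (median -2.29). In the immediate early and stress list 7 genes were called lower in *Fabp4*-low *Ets1* eKO cells and 0 genes in coronary cells. Of the 41727 erythroid UMIs in *Fabp4*-low *Ets1* eKO 2, 65.2% lay in 5 cells, and 12 of its 468 cells had over 1% of such UMIs. For matrix genes 3 differed upwards and 1 downwards. For the S phase list (median -0.07) and the G2 and mitosis list (median 0.04) 0 genes were called by edgeR. Beside these counts, 0.816% of all genes tested were called.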

How the data were processed

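Whole ventricles of 3 embryos per library were dissociated and sequenced as droplet 3' tag libraries. The deposited matrices hold whole-number UMI counts per gene and barcode, made by the authors with Cell Ranger 7.1.0 on mm10, and Seurat 4.3.0 is also named in the submitters' processing notes. The study's methods describe correction of ambient RNA and removal of doublets and of barcodes rich in mitochondrial or globin RNA. The deposited counts are whole numbers, and barcodes rich in globin RNA are present.

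Barcodes were chosen by the limits given with the results, their UMI counts were added up within each library and class of cells, and CPM used all UMIs of that sum. The sums were tested with edgeR 4.0.16 in R 4.3.3 (filterByExpr, TMM scaling, quasi-likelihood F test, two-sided, Benjamini-Hochberg adjustment over all genes tested, called at 0.05), with 2 libraries per group. Differences of effects were interaction terms with the library as a block. The 11 genes of the rule were not tested. DESeq2 1.42.0, scaling by total count, no filter on low counts, other limits for *Fabp4* (0.3%) and *Top2a* with *Mki67* (4 UMIs), the cycling rule after thinning to 3000 UMIs, removal of doublets, removal of barcodes with over 0.2% of UMIs from other cell types' lists, the replicate number as a term and leaving out each library were the alternatives. Doublets were scored with scikit-learn 1.9.0 from 2 simulated doublets per cell, 2000 variable genes, 30 components and 90 neighbours, at a rate of 0.8% per 1000 barcodes. Shares carry exact Clopper-Pearson 95% intervals, and intervals and floors (3 counts over the group) cover counting error only. Nothing in the labels says more of the replicates than that each is a pool of embryos. The steps were tested on simulated data.

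Genes named are *Ets1* and the genes of the rule, the 8 largest called changes in each direction without overlap, up to 4 called members of each list by adjusted p or else the 2 most abundant, 16 genes the study names, the 5 lowest p in each direction of each interaction, and the 10 largest ratios in each direction between cycling and non-cycling cells. *Lgals1*, *Tnnt1*, *Etv4* and members used as examples beside these were added after their values were seen. Of the genes that meet these rules, 2 are not reported here. The members and lists were chosen with earlier results of these data known. Ribosomal protein genes were taken by name pattern. The first promoter entry per symbol was used, and gene positions are from GENCODE vM21.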

Additional observations from a re-analysis of the deposited data

Results flagged for a closer look

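Differences in the eKO effect between classes of cells from the same libraries, each by an interaction test with edgeR, drew a closer look. Between cycling and non-cycling coronary cells 2 genes passed, among them *Hba-x* with a difference of -4.81 on the log2 scale. Between cycling coronary and cycling *Fabp4*-low cells 97 genes passed. The effect was higher in coronary cells for *Nrxn3* (2.02), *S100a16* (1.29), *Ltbp1* (1.23), *Ncam1* (1.44) and *Pcdh7* (1.42). It was lower in coronary cells for *Akap12* (-1), *Col15a1* (-1.83), *Zfpm2* (-0.69), *Dock6* (-0.71) and *Hba-x* (-6.20). Globin UMIs lay in few cells of *Ets1* eKO 2, as the values above show, and the causes of the other differences were not tested.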

How the results depend on the processing

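Counts of called genes that moved by over 1.5 times, and the lowest and highest counts without single libraries whether or not they moved as far, were, in cycling coronary cells (104), 50 with DESeq2, 69 with *Fabp4* of at least 0.3%, 326 with no filter on low counts, and 147 to 332 without single libraries. In non-cycling cells (69) they were 27, 11 and 198 under the same settings, 23 with a limit of 4 UMIs, and 49 to 497 without single libraries. For the difference between these classes (2) they were 0 with DESeq2, 5 with *Fabp4* of at least 0.3%, 5 with a limit of 4 UMIs, 10 with doublets removed, 35 with no filter, 4 with other cell types left out, and 4 to 51 without single libraries. In *Fabp4*-low cells (135) the count was 459 with no filter and 107 to 662 without single libraries, and for the difference from these cells (97) it was 180 and 99 to 206. The replicate block was an alternative because the labels number the libraries: the paired fit called 212 genes in cycling and 133 in non-cycling cells. The deviations of same-numbered libraries from their group means had a correlation of -0.0980 over 10714 genes. With 2 libraries per group, this single correlation cannot show whether the numbers mark pairs. *Ets1* was called under every alternative run, at -1.48 to -0.97. The difference in cycling share (0.0934 points) was 3.36 with a limit of 1 UMI and 0.201 at 5000 UMIs, and changed sign to -0.452 at 2000 UMIs, -6.03 without thinning, -0.471 with doublets removed, -0.375 with *Fabp4* of at least 0.3%, -0.257 with no upper gene limit, and -2.01 to 2.19 without single libraries. The difference in phase balance was 0.0197 to 0.179, with overlapping groups after thinning and with doublets removed. Of 472 values of the 37 called named genes over the alternatives, 472 kept their sign and 412 their call. Of 1083 values of 84 uncalled named genes, 51 passed the threshold, and of the 1032 uncalled on both sides, counted separately, 107 changed sign. Leaving out a library leaves 1 in its group, which is then assumed to vary like the others. Depth per cell, lowest in *Ets1* eKO 2, limits the cycling rule. The cause of each change was not tested.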
